A study of Caenorhabditis elegans with 45 samples.

Results

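The genes described here are 10 genes of the nematode Caenorhabditis elegans that act in the oocyte and in the making of the eggshell: cbd-1, perm-2, perm-4, chs-1, cpg-1, cpg-2, egg-1, egg-2, puf-5 and oma-2. They were matched by symbol among the 46926 genes of the deposited table, and each symbol matched 1 row. Polyadenylated RNA of whole young adult hermaphrodites had been sequenced in 45 libraries, 5 replicates lettered A to E for each of 9 genotypes. Per the labels' protocols, 300 to 500 L4 larvae were picked for each sample and collected 6 h later, a stage chosen so that few embryos had built up in the uterus, after growth at 20 °C in 20% oxygen. Each genotype was a single strain. In the smg-2 background, all with smg-2(r863), strain MT27180 also carried egl-9(sa307) and hif-1(ia4), MT26461 also carried egl-9(sa307), and MT27410 carried smg-2(r863) alone. In the smg-1 background, all with smg-1(n6597), MT27177 also carried egl-9(sa307) and hif-1(ia4), MT26971 also carried egl-9(sa307), and MT26974 carried smg-1(n6597) alone. With nonsense-mediated decay intact, CB6088 carried egl-9(sa307) and hif-1(ia4), JT307 carried egl-9(sa307), and N2 was the wild type. They are called here by their mutated genes without the alleles, and the strains with all 3 mutations are called the smg-1 and smg-2 triple mutants (smg-1 egl-9 hif-1 and smg-2 egl-9 hif-1 in the plots). No group was exposed to low oxygen.

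In the hermaphrodite gonad, oocytes mature in a row towards the spermatheca, and transcripts for the eggshell are made and stored before fertilisation. CBD-1 is a chitin-binding protein that holds the vitelline layer, the outermost layer of the eggshell, to the oocyte, and PERM-2 and PERM-4 are further proteins of that layer. CHS-1 is the chitin synthase of the middle layer, and CPG-1 and CPG-2 are chondroitin proteoglycans of the layer beneath it. EGG-1 and EGG-2 are paralogous membrane proteins of the oocyte surface with LDL-receptor repeats that are needed for sperm to enter. PUF-5, an RNA-binding protein of the Pumilio family, and OMA-2, a CCCH zinc-finger protein that is redundant with OMA-1 in oocyte maturation, control mRNAs of late oocytes. EGL-9 is the prolyl hydroxylase through which oxygen leads to destruction of the transcription factor HIF-1, so mutants without EGL-9 have active HIF-1 even in normal oxygen. SMG-1, a kinase, and SMG-2, an RNA helicase, act in nonsense-mediated decay, or NMD, which removes mRNAs with premature stop codons.

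In WBcel235 coordinates of the Ensembl release 115 annotation, perm-2 (WBGene00016636, chromosome IV, 1126790 to 1128865, plus strand) and perm-4 (WBGene00016638, IV, 1121494 to 1125107, minus strand) are neighbours that point away from each other, 1682 bp apart with 0 protein-coding genes between them. The other genes lie apart. cbd-1 (WBGene00010351) is at IV, 11372991 to 11377627 on the plus strand, and chs-1 (WBGene00000496) at I, 7554855 to 7559916 on the plus strand. cpg-1 (WBGene00000465) is at III, 4489359 to 4491392 on the plus strand, and cpg-2 (WBGene00015102) at III, 7102092 to 7103990 on the minus strand, 2610699 bp away. egg-1 (WBGene00015083) is at III, 5728180 to 5730159 on the plus strand, and egg-2 (WBGene00019811) at III, 7058527 to 7060583 on the minus strand, 1328367 bp away. puf-5 (WBGene00004241) is at II, 8575541 to 8577787, and oma-2 (WBGene00003865) at V, 8029439 to 8031214, both on the plus strand. Exons of 3 of the genes share bases with another protein-coding gene: egg-1 shares 42 with B0244.9 on the opposite strand, perm-2 shares 25 with C44B12.6 on the opposite strand, and chs-1 shares 5 with T25G3.3 on its own strand. Over all libraries B0244.9 had 6659 counts beside 292616 for egg-1, C44B12.6 had 289 beside 335337 for perm-2, and T25G3.3 had 123706 beside 225076 for chs-1. The division of reads between egg-1 and egg-2, and between oma-2 and oma-1, rests on the authors' estimation and is uncertain to that extent.

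Total counts were 9822412 to 33169699 per library, and all 10 genes passed the filter on low counts, with 477 to 69146 counts in a library. Levels are given as CPM, counts scaled to library size with TMM factors, or, for comparisons between genes, as TPM, which also take gene length into account. Fold changes come from a single model of all 45 libraries over 16053 tested genes. A gene is called, and is said to have risen or fallen, where the p-value of edgeR's quasi-likelihood F test, adjusted by Benjamini-Hochberg over all tested genes, was under 0.05. The labels call the libraries biological replicates. As a check of the labels, all 5 listed HIF-1 targets (rhy-1, nhr-57, cysl-2, sqrd-1 and rips-1) were called higher in egl-9 than in N2, and all 5 were called lower with hif-1 lost from egl-9, smg-1 egl-9 and smg-2 egl-9. Their summed TPM was 32.9 to 127 in the smg-1 triple mutant (median 35.7), 15.7 to 22.2 in the smg-2 triple mutant and 17.8 to 27.7 in egl-9 hif-1. In the smg-1 triple mutant relative to egl-9 hif-1, 3 of the 5 were called higher and 0 lower (median log2 fold change 1.86). The hif-1 RNA itself averaged 337 ± 34.9 CPM in the smg-2 triple mutant and 167 ± 3.57 in smg-2 egl-9, 323 ± 44.5 in the smg-1 triple mutant and 163 ± 14.5 in smg-1 egl-9, and with NMD intact 24.9 ± 7.64 in egl-9 hif-1 and 153 ± 8.49 in egl-9 (SD, n = 5 each). Its amount therefore differed in direction between NMD-mutant and NMD-intact backgrounds. The RNA of smg-2 averaged 87.1 ± 9.16 CPM in smg-2 and 86.5 ± 13.4 CPM in N2, and its amount does not check that allele.

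The replicate C libraries had low values of the 10 genes. Averaged over the 10 genes, the C library lay below the mean of its own genotype in 8 of 9 genotypes, by up to 0.62 on the log2 scale in smg-1, by 0.61 in smg-2 and by 0.56 in egl-9 hif-1. The D libraries lay above their genotype mean in all 9. What the letters mark is not given in the labels used here, and each comparison was repeated without the C libraries.

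Levels per length differed widely among the 10 genes in N2. There cpg-2 (812 ± 83.7 TPM), cpg-1 (764 ± 128), perm-2 (748 ± 96.5) and perm-4 (724 ± 84.1) were the most abundant (SD, n = 5). cbd-1 followed at 429.6 ± 79.7 TPM, then puf-5 at 265 ± 35.1, oma-2 at 234.9 ± 37.6 and egg-1 at 230.0 ± 27.9. egg-2 (98.3 ± 15.3 TPM) and chs-1 (70.6 ± 12.6 TPM) were lowest. Their order was another in the smg-2 triple mutant, where perm-2 (692 ± 100.2 TPM) and perm-4 (676 ± 85.6 TPM) stood far above cpg-1 (241 ± 66.4 TPM), cbd-1 (125 ± 38.2 TPM) and cpg-2 (122 ± 41.9 TPM). The 10 genes together held 2139 ± 335 TPM in the smg-2 triple mutant, 4377 ± 350.5 in smg-2 egl-9, 2651 ± 579 in smg-2 alone, 2522 ± 554 in smg-1 alone, 5127 ± 359 in egl-9 and 4377 ± 475 in N2. As a share of counts they took 0.280% to 1.07% of a library.

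Across the 9 genotypes, 8 of the 10 genes had their highest mean CPM in egl-9 and their lowest in the smg-2 triple mutant. The ratio of the highest to the lowest genotype mean was 8.67 for cpg-2 and lay between 3.50 for puf-5 and 4.32 for oma-2 for the other 7. perm-2 and perm-4 varied least, by 1.58-fold and 1.51-fold, with their highest mean in N2 and their lowest in smg-1. In order of mean CPM, neighbouring genotypes overlapped for all 10 genes with 2 exceptions: all egl-9 libraries lay above all N2 libraries, the next in order, for chs-1 and cpg-2. The 8 genes other than perm-2 and perm-4 correlated with the mean profile of all 10 over the 9 genotype means with a Pearson r of 0.92 to 0.99. That r was 0.47 for perm-2 and 0.60 for perm-4. Each gene is part of that mean profile, and these values are descriptions over 9 points.

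**Figure D1:**
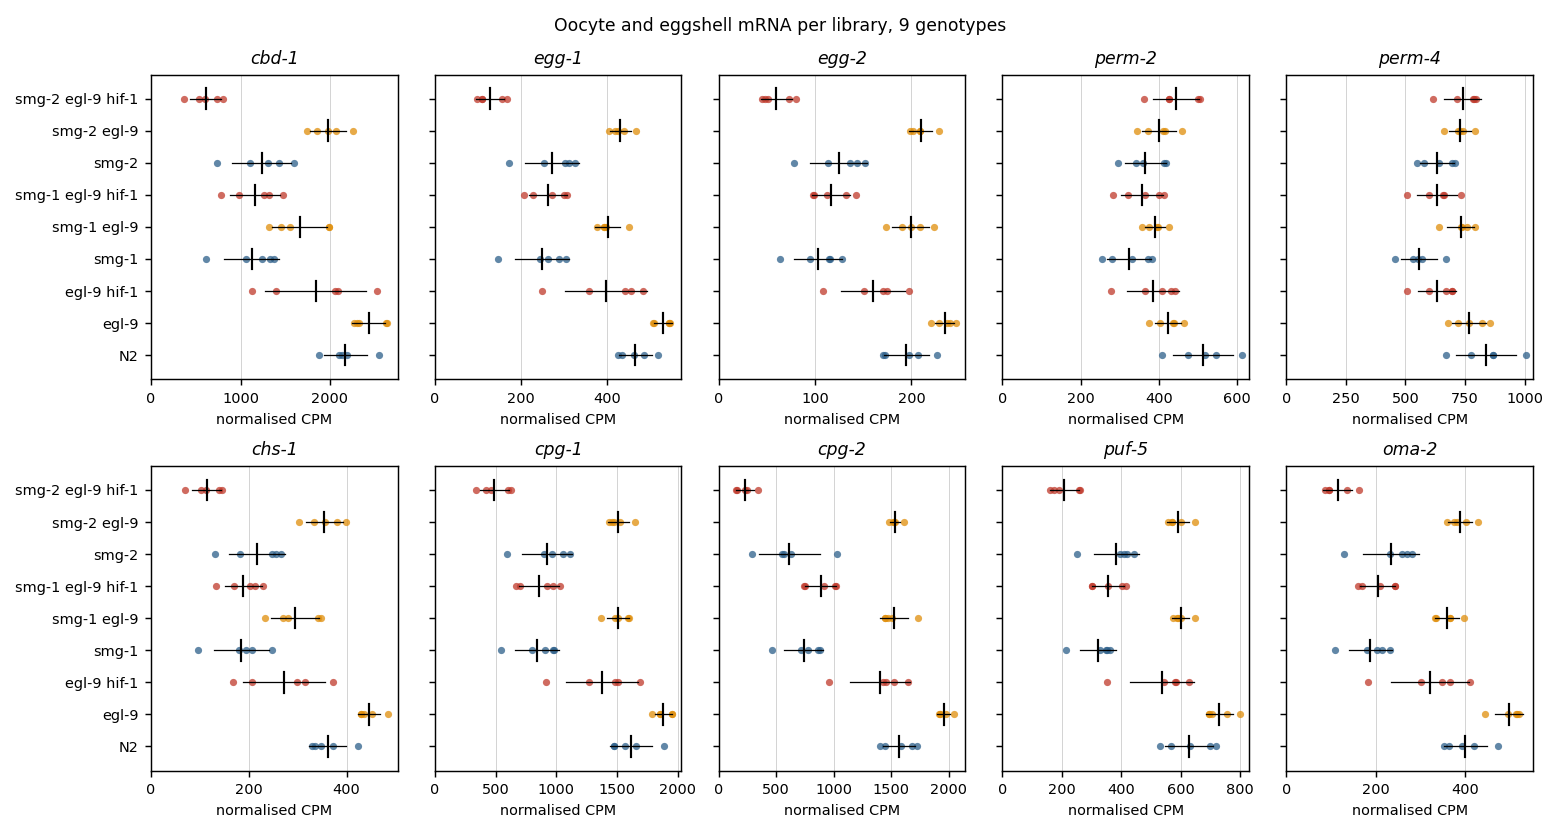
Normalised CPM (horizontal axes, linear from 0) of the 10 genes in each of 45 libraries, by genotype. Points are libraries, vertical bars genotype means and horizontal bars 1 SD on either side (n = 5), with genotypes that carry a hif-1 mutation in red, egl-9 without hif-1 in orange and neither in blue. For 8 genes the smg-2 triple-mutant libraries are the lowest group, whereas perm-2 and perm-4 in that genotype average 444 ± 58.9 and 739 ± 76.3 CPM and lie among the other genotypes.

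Loss of either NMD factor alone was compared with N2 first. All 10 genes fell in smg-1, with a median log2 fold change of -0.95, and all 10 fell in smg-2, with a median of -0.76. In smg-1, 53.1% of all tested genes were called, 28.8% higher and 24.3% lower, and the median log2 fold change of all genes was 0.11. In smg-2, 43.9% of all tested genes were called, 24.3% higher and 19.6% lower, and that median was 0.07. In whole animals, fewer oocytes and less of these RNAs per oocyte cannot be told apart, here or in any comparison below.

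cpg-2, the proteoglycan gene, had 881, 712, 462, 777 and 865 CPM in smg-1, against 1589.5, 1682, 1406, 1726 and 1445 CPM in N2, for libraries A to E. It had 1032, 565, 292, 552 and 630.2 CPM in smg-2. Every smg-1 and smg-2 library lay below every N2 library, and within smg-2 library A stood well above the other 4. The log2 fold changes were -1.09 in smg-1 (SE 0.20 and adjusted p 1.46e-05) and -1.35 in smg-2 (SE 0.20 and adjusted p 3.75e-07), both from edgeR. Of the other proteoglycan gene, cpg-1, the levels were 841 ± 182 CPM in smg-1 animals and 925 ± 204 CPM with smg-2 mutated, against 1614 ± 171 CPM in N2, log2 fold changes of -0.94 and -0.80. chs-1, the chitin synthase gene, averaged 185 ± 56.2 and 217 ± 58.0 CPM, against 362 ± 38.3 CPM in N2.

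The sperm-entry gene egg-1 had 262, 243, 146, 304 and 288 CPM in smg-1 animals, 325, 302, 171, 310.2 and 252 CPM in smg-2 animals and 462, 518, 424, 485 and 434 CPM in N2. Neither mutant overlapped N2, and library C was the lowest in each of the 3 groups. The log2 fold change of egg-1 was -0.90 (SE 0.17) in smg-1 and -0.77 (SE 0.16) in smg-2. Its paralogue egg-2 changed by -0.92 and -0.65 on the same scale.

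The oocyte RNA-binding factors fell alongside the shell genes. oma-2 had 214, 181, 109, 233 and 203 CPM in smg-1 animals, 281, 269.8, 129, 259 and 231 CPM in smg-2 animals and 393, 473, 364, 419 and 352 CPM in N2, with no overlap between either mutant and N2. Its log2 fold changes were -1.09 (SE 0.19) and -0.77 (SE 0.19), and those of puf-5 were -0.97 (SE 0.15) and -0.71 (SE 0.15). The vitelline-layer gene cbd-1 changed by -0.95 and -0.81.

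perm-2 and perm-4 had the smallest changes of the 10 in both mutants. perm-2 had 331, 279.7, 255, 382 and 371 CPM in smg-1 animals, 359, 418, 295, 413 and 342 CPM in smg-2 animals and 408, 545, 518, 612 and 473 CPM in N2. All smg-1 libraries lay below N2, and smg-2 overlapped N2. The log2 fold changes of perm-2 were -0.66 (SE 0.13 and adjusted p 2.79e-05 in edgeR) in smg-1 and -0.48 (SE 0.12 and adjusted p 0.00161) in smg-2, and those of perm-4 were -0.59 and -0.40. Of the 10 genes, 9 had every smg-1 library below every N2 library, beside 16.5% of all tested genes, and 8 had every smg-2 library below, beside 11.6%. The 10 calls in each mutant held in every one of the 10 models that left out a library of either group, and without all C libraries.

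Active HIF-1 in an NMD-intact animal, egl-9 relative to N2, gave 0 called genes of the 10 in edgeR and 0 in the DESeq2 Wald test, with 1 at an unadjusted p under 0.05. In that comparison 33.7% of all tested genes were called, 11.9% higher and 21.8% lower. With DESeq2 size factors the split over all genes was 3034 lower and 2475 higher. Of the 10 log2 values 8 were positive, all but those of perm-2 and perm-4, with a median of 0.22 over the 10 genes and -0.03 over all tested genes. chs-1 had 452, 430.3, 437, 429 and 484 CPM in egl-9, against 373, 423, 348, 329 and 335 CPM in N2. Every egl-9 library lay above every N2 library, as it did for cpg-2 (1959 ± 56.4 CPM in egl-9 and 1569.6 ± 141 in N2), beside 7.72% of all tested genes. The log2 fold changes were 0.30 for chs-1 (SE 0.20 and adjusted p 0.266 in edgeR) and 0.32 for cpg-2 (SE 0.20 and adjusted p 0.219). In a model of these genotypes alone, 7 genes were called higher (egg-1, egg-2, chs-1, cpg-1, cpg-2, puf-5 and oma-2), with log2 fold changes of 0.25 to 0.39. The split over all genes moved as well, to 2501 higher and 2557 lower, where the model of all libraries gave 1916 higher and 3500 lower. perm-2 averaged 423 ± 34.3 CPM in egl-9 animals and 511 ± 76.7 CPM in N2 for a log2 fold change of -0.27 (SE 0.12 and adjusted p 0.0876 in edgeR), and was called lower without N2 replicate A (adjusted p 0.0358) and without all C libraries (adjusted p 0.0279).

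With hif-1 lost as well, the levels were lower than in egl-9. In egl-9 hif-1 relative to egl-9, 8 of the 10 genes fell and 0 rose, with a median log2 fold change of -0.45. There 46.8% of all tested genes were called, 26.7% higher and 20% lower. With DESeq2 size factors in place of TMM, the split over all genes was 4478 lower and 3603 higher, and the median log2 fold change of all genes moved by 0.10. chs-1 changed most: it had 373, 298, 168, 315 and 206 CPM in egl-9 hif-1, against 452, 430.3, 437, 429 and 484 CPM in egl-9 for a log2 fold change of -0.71 (SE 0.20 and adjusted p 0.00369 in edgeR). The groups did not overlap, and the egl-9 hif-1 libraries C and E were the lowest. oma-2 averaged 322 ± 87.0 CPM in egl-9 hif-1 and 497 ± 31.5 CPM in egl-9 (log2 fold change -0.63, SE 0.19), egg-2 160.3 ± 33.3 and 234 ± 9.93 CPM (-0.55, SE 0.16), and puf-5 538 ± 108 and 730.2 ± 46.0 CPM (-0.44, SE 0.15). cpg-1, cpg-2, egg-1 and perm-4 were also called, at log2 fold changes of -0.45, -0.48, -0.41 and -0.28. cbd-1 (-0.40, SE 0.21 and adjusted p 0.104 in edgeR) and perm-2 (-0.14, SE 0.12) did not pass. cbd-1 was called lower with DESeq2 size factors (adjusted p 0.0353) and without egl-9 hif-1 replicate A (adjusted p 0.0323), and perm-2 on the log2(TPM + 1) scale (adjusted p 0.0332). For 7 genes every egl-9 hif-1 library lay below every egl-9 library, beside 12.3% of all tested genes.

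Some of these calls did not hold with 1 library left out. That of cpg-2 was lost without any one of the 5 egl-9 libraries or without egl-9 hif-1 replicate C (adjusted p 0.0532 to 0.0865 in edgeR). That of egg-1 was lost without egl-9 replicate C, D or E or egl-9 hif-1 replicate C (adjusted p 0.0583 to 0.0724), and that of perm-4 without egl-9 replicate C or D (adjusted p 0.0832 and 0.0668) and without all C libraries (adjusted p 0.152). Against N2, egl-9 hif-1 animals had lower perm-2 (385 ± 66.7 CPM in egl-9 hif-1, 511 ± 76.7 in N2, log2 fold change -0.41, SE 0.12) and perm-4 (633 ± 80.7 and 837 ± 125 CPM, log2 fold change -0.40, SE 0.11). These were 2 of 10, where 14.5% of all tested genes were called, 9.65% higher and 4.85% lower. With DESeq2 size factors the split over all genes was 1200 lower and 1389 higher. The perm-2 call was lost without N2 replicate B or D or egl-9 hif-1 replicate C (adjusted p 0.0548 to 0.0828), and both calls were lost in a model of these genotypes alone (adjusted p 0.106 and 0.0847). The other 8 genes had log2 differences of -0.41 to -0.16 and did not pass. Of these, chs-1 alone was called lower under any alternative tried, over which its values ran from -0.59 to -0.33.

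In animals without NMD, the egl-9 mutation was accompanied by higher levels of most of the 10 genes. In smg-1 egl-9 relative to smg-1, 9 of 10 rose and 0 fell, with a median log2 fold change of 0.77, where 50.3% of all tested genes were called, 25.1% higher and 25.3% lower. In smg-2 egl-9 relative to smg-2, 8 of 10 rose and 0 fell, with a median of 0.69, where 41% of all tested genes were called, 19% higher and 21.9% lower. cpg-2 had 1529, 1520.5, 1537, 1609 and 1481 CPM in smg-2 egl-9, against 1032, 565, 292, 552 and 630.2 CPM in smg-2. The smg-2 egl-9 libraries were close to each other and all lay above smg-2, and the log2 fold change was 1.32 (SE 0.20 and adjusted p 1.16e-06 in edgeR). In the smg-1 background cpg-2 averaged 1524 ± 120.4 CPM in smg-1 egl-9 and 739 ± 169.6 CPM in smg-1 for a log2 fold change of 1.04 (SE 0.20).

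The oocyte regulators and the sperm-entry genes rose in both backgrounds. puf-5 had 591, 600.1, 587, 576 and 647 CPM in smg-1 egl-9, against 351, 329.8, 215, 363 and 348 CPM in smg-1, with no overlap and a log2 fold change of 0.90 (SE 0.15). In the smg-2 background its log2 fold change was 0.62 (SE 0.15). Those of oma-2 were 0.94 and 0.73, of egg-2 0.95 and 0.75, of egg-1 0.69 and 0.66, of cpg-1 0.84 and 0.71 and of chs-1 0.67 and 0.71, in smg-1 egl-9 and smg-2 egl-9. cbd-1 rose by 0.56 in smg-1 egl-9, a call that was lost without smg-1 egl-9 replicate A or D or smg-1 replicate C (adjusted p 0.0586 to 0.0830 in edgeR) and with log2(TPM + 1) (adjusted p 0.0925), and by 0.68 in smg-2 egl-9. perm-4 rose by 0.40 (SE 0.11) in smg-1 egl-9 and had a log2 difference of 0.20 (SE 0.11) in smg-2 egl-9, which did not pass. perm-4 was called there on the log2(TPM + 1) scale (adjusted p 0.0396). perm-2 passed in neither, at 0.27 (SE 0.12) and 0.13 (SE 0.12), and was called higher in smg-1 egl-9 without smg-1 replicate D or E (adjusted p 0.0318 and 0.0424).

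The difference between the egl-9 effect in NMD-mutant and NMD-intact animals was tested as an interaction. For smg-1 it was positive and called for 3 of 10 genes, puf-5 (0.69, SE 0.21 and adjusted p 0.0323 in edgeR), perm-2 (0.54, SE 0.18) and perm-4 (0.52, SE 0.15). There 8.93% of all tested genes were called, 5.78% positive and 3.15% negative. With DESeq2 size factors 0 of the 10 were called and the split over all genes was 375 positive and 559 negative. The count was 6 with only the genotypes compared, 7 without all C libraries and 8 with the replicate letter as a block. Single libraries also ended these calls: the count lay between 0 and 5 with 1 library left out, and was 0 without N2 replicate D, egl-9 replicate A or B, or smg-1 replicate C. For smg-2 the interaction was called for cpg-2 alone, at 1.00 (SE 0.28 and adjusted p 0.0301), where 3.64% of all tested genes were called, 1.69% positive and 1.96% negative, or 207 genes positive and 400 negative with DESeq2 size factors. That call was lost without N2 replicate B or D, egl-9 replicate B, smg-2 replicate C or smg-2 egl-9 replicate D (adjusted p 0.0502 to 0.0645).

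**Figure D2:**
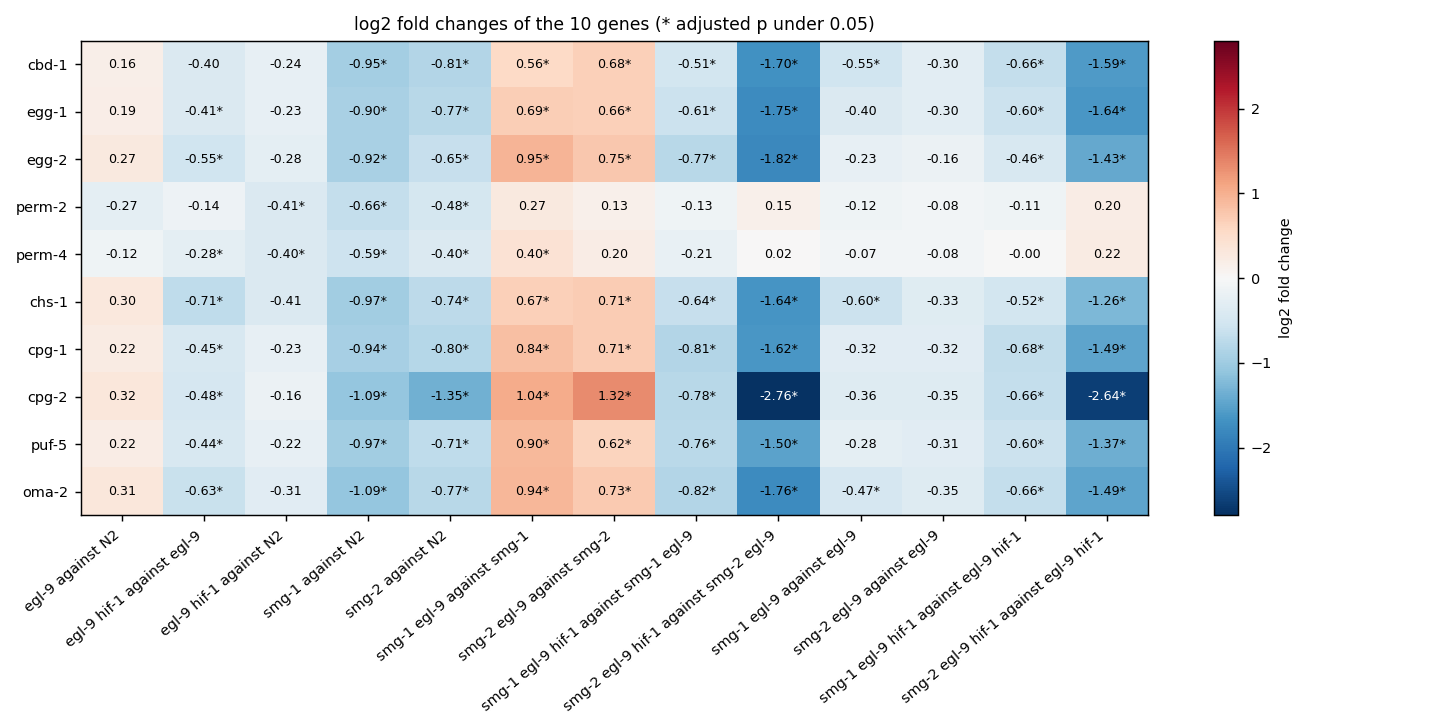
log2 fold changes of the 10 genes (rows) in 13 comparisons of genotypes (columns), with the scale from blue for lower to red for higher in the genotype named first and an asterisk for an adjusted p under 0.05 in edgeR. The values are negative throughout for smg-1 and smg-2 relative to N2, reach -2.76 for cpg-2 in the smg-2 triple mutant relative to smg-2 egl-9, and are small for perm-2 and perm-4 in both comparisons of the smg-2 triple mutant.

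Loss of hif-1 from the NMD-mutant egl-9 strains was accompanied by a fall of 8 of the 10 genes in each. In the smg-1 triple mutant relative to smg-1 egl-9 the median log2 fold change was -0.70 and the 8 were all but perm-2 and perm-4, where 49.7% of all tested genes were called, 24% higher and 25.7% lower. In the smg-2 triple mutant relative to smg-2 egl-9 the median was -1.67, again with all but perm-2 and perm-4 called, where 57.6% of all tested genes were called, 28.4% higher and 29.2% lower. For each of those 8 genes every smg-2 triple-mutant library lay below every smg-2 egl-9 library, as did 23.5% of all tested genes. The 8 calls in the smg-2 background held in each model without 1 library of either group and without all C libraries. In the smg-1 background perm-4 (-0.21, SE 0.11) was called lower as well without smg-1 triple-mutant replicate D (adjusted p 0.0418 in edgeR).

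cpg-2 had the largest fall of the 10. It had 344, 230.1, 161, 243 and 153 CPM in the smg-2 triple mutant, against 1529, 1520.5, 1537, 1609 and 1481 CPM in smg-2 egl-9. The lowest smg-2 egl-9 library was thus at several times the highest of the smg-2 triple mutant, and the log2 fold change was -2.76 (SE 0.21 and adjusted p 2.09e-14 in edgeR). In the smg-1 background cpg-2 had 1015, 913, 742, 1017 and 749.5 CPM in the smg-1 triple mutant, against 1451, 1511, 1448, 1476 and 1735 CPM in smg-1 egl-9 for a log2 fold change of -0.78 (SE 0.20).

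cbd-1, which anchors the vitelline layer, had 799.7, 539.6, 607, 740.1 and 365 CPM in the smg-2 triple mutant, against 2062, 1979, 1738, 2254 and 1852 CPM in smg-2 egl-9 for a log2 fold change of -1.70 (SE 0.21 and adjusted p 8.45e-09 in edgeR). Library E was the lowest of the smg-2 triple mutant, and the groups were far apart. In the smg-1 triple mutant relative to smg-1 egl-9 the log2 fold change of cbd-1 was -0.51 (SE 0.21) and the groups overlapped. That call was lost without smg-1 egl-9 replicate A or D or smg-1 triple-mutant replicate C or E (adjusted p 0.0903 to 0.128) and with log2(TPM + 1) (adjusted p 0.123).

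The other vitelline-layer genes were at similar levels in both genotypes of the smg-2 background, with overlapping libraries. perm-2 had 427, 362, 426, 499 and 504 CPM in the smg-2 triple mutant, against 373, 345, 416, 409.9 and 459 CPM in smg-2 egl-9. perm-4 had 795, 616, 715, 783 and 788 CPM in the smg-2 triple mutant, against 720.2, 661, 740.5, 731 and 792 CPM in smg-2 egl-9. The log2 differences were 0.15 (SE 0.12 and adjusted p 0.316 in edgeR) and 0.02 (SE 0.11 and adjusted p 0.881). perm-2 was called higher without smg-2 triple-mutant replicate B (adjusted p 0.0186) and without all C libraries (adjusted p 0.0312).

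The remaining 6 genes fell in both backgrounds. In the smg-2 triple mutant and smg-2 egl-9, chs-1 averaged 114 ± 30.4 and 354 ± 37.9 CPM (log2 fold change -1.64), cpg-1 491 ± 123 and 1510.3 ± 85.8 CPM (-1.62) and egg-1 128 ± 31.4 and 430.0 ± 24.1 CPM (-1.75). egg-2, oma-2 and puf-5 had log2 fold changes of -1.82, -1.76 and -1.50. In the smg-1 background the same 6 genes had values of -0.82 for oma-2, -0.81 for cpg-1, -0.77 for egg-2, -0.76 for puf-5, -0.64 for chs-1 and -0.61 for egg-1.

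The fall with loss of hif-1 was larger in smg-2 egl-9 than in egl-9 alone. The interaction, the log2 effect of losing hif-1 in smg-2 egl-9 minus that in egl-9, was negative and called for 8 of 10 genes with a median over the 10 of -1.15. There 20.1% of all tested genes were called, 4.75% positive and 15.4% negative, with a median over all genes of -0.13. With DESeq2 size factors the all-gene split was 1450 negative and 1097 positive and the median of all genes was -0.01. The values were -2.28 for cpg-2 (SE 0.28 and adjusted p 5.87e-08 in edgeR), -1.34 for egg-1, -1.29 for cbd-1, -1.27 for egg-2, -1.17 for cpg-1, -1.13 for oma-2, -1.06 for puf-5 and -0.93 for chs-1. The chs-1 call was lost without smg-2 triple-mutant replicate B or E or egl-9 hif-1 replicate D (adjusted p 0.0595 to 0.0960) and with log2(TPM + 1) (adjusted p 0.174). perm-2 (0.28, SE 0.18) and perm-4 (0.30, SE 0.15) had positive values that did not pass. perm-4 was called positive with DESeq2 size factors (adjusted p 0.0476) and without any one of 6 libraries, smg-2 triple-mutant replicates B, D and E and egl-9 hif-1 replicates C, D and E (adjusted p 0.0102 to 0.0416). perm-2 was called positive without smg-2 triple-mutant replicate B (adjusted p 0.0393) or egl-9 hif-1 replicate D (adjusted p 0.0426). For smg-1 the same interaction was called for 0 of 10 genes in edgeR and 0 in the DESeq2 Wald test, with 0 at an unadjusted p under 0.05. There 3.58% of all tested genes were called, 0.766% positive and 2.82% negative, or 191 genes negative and 226 positive with DESeq2 size factors, which moved the median of all genes to 0.02 where TMM gave -0.11. Its values ran from -0.36 (SE 0.22) for cpg-1 to 0.08 (SE 0.29) for chs-1.

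The NMD mutations were also compared within each HIF-1 state. In the egl-9 state, smg-1 egl-9 relative to egl-9 had 3 of 10 genes called lower, where 34.7% of all tested genes were called, 24.1% higher and 10.6% lower. DESeq2 size factors gave 2849 lower and 3433 higher genes, and TMM 1695 lower and 3871 higher. The 3 were chs-1 (294 ± 49.7 CPM in smg-1 egl-9, 446 ± 23.0 in egl-9, log2 fold change -0.60, SE 0.20), cbd-1 (-0.55, SE 0.21) and oma-2 (-0.47, SE 0.18). The chs-1 call was lost without smg-1 egl-9 replicate C (adjusted p 0.0638 in edgeR), the cbd-1 call without any one of 5 libraries (egl-9 replicates A and E and smg-1 egl-9 replicates B, C and E, adjusted p 0.0651 to 0.0984) and the oma-2 call without any one of 8 (all but egl-9 replicate B and smg-1 egl-9 replicate D, adjusted p 0.0595 to 0.0966). smg-2 egl-9 relative to egl-9 had 0 of 10 called in edgeR, 5 in the DESeq2 Wald test and 1 at an unadjusted p under 0.05, where 33.3% of all tested genes were called, 23.6% higher and 9.66% lower. The log2 differences ran from -0.35 for oma-2 to -0.08 for perm-4. With DESeq2 size factors 3293 genes were lower and 3280 higher, where TMM gave 1550 lower and 3795 higher. All 10 values were negative in both comparisons. In 7 genes of each comparison every NMD-mutant library lay below every egl-9 library, beside 7.82% of all tested genes for smg-1 and 11.3% for smg-2. DESeq2 size factors, which moved the smg-2 egl-9 comparison by 0.11 for every gene, gave 4 called genes there (egg-1, cpg-1, puf-5 and oma-2) and 6 for smg-1.

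In the egl-9 hif-1 state 8 of the 10 genes fell with either NMD mutation, again all but perm-2 and perm-4. The smg-1 triple mutant relative to egl-9 hif-1 gave a median log2 fold change of -0.60, where 36.7% of all tested genes were called, 18.6% higher and 18% lower, with overlap between the groups for each of the 10 genes. The wide spread within egl-9 hif-1 bears on that comparison: oma-2 had 243, 209, 159, 242 and 168 CPM in the smg-1 triple mutant, against 411, 348, 183, 367 and 300.4 CPM in egl-9 hif-1, whose library C lay within the other group (log2 fold change -0.66, SE 0.19). On the deposited log2(TPM + 1) scale 1 of the 8 calls remained, that of cpg-1. The calls of chs-1 and egg-2 were each lost without any one of 5 libraries, egl-9 hif-1 replicates A, B and D and smg-1 triple-mutant replicates C and E (adjusted p 0.0738 to 0.152 and 0.0528 to 0.0849), and that of cbd-1 without egl-9 hif-1 replicate A (adjusted p 0.0512). The smg-2 triple mutant relative to egl-9 hif-1 gave a median of -1.46, where 51.8% of all tested genes were called, 25.8% higher and 26% lower, with no overlap for the 8 genes, where 15.5% of all tested genes had none. cpg-2 averaged 226 ± 77.0 CPM in the smg-2 triple mutant and 1405 ± 263 CPM in egl-9 hif-1 for a log2 fold change of -2.64 (SE 0.21). The other 7 lay between -1.64 for egg-1 and -1.26 for chs-1. perm-2 and perm-4 had positive values, 0.20 (SE 0.12) and 0.22 (SE 0.11). They did not pass, and perm-4 was called higher on the log2(TPM + 1) scale at 0.41 (adjusted p 0.00901), as was perm-2 at 0.41 (adjusted p 0.0279). Without any one of 6 libraries perm-4 was called higher too (adjusted p 0.00328 to 0.0494), and without smg-2 triple-mutant replicate B or egl-9 hif-1 replicate D so was perm-2 (adjusted p 0.0182 and 0.0264). Further alternatives called each gene higher as well. Over all alternatives tried, the log2 values ran from 0.17 to 0.41 for perm-2 and from 0.20 to 0.42 for perm-4.

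Ratios within a library remove what all of the genes share. These ratios were chosen with the values known and carry no test. The TPM of cpg-2 over that of cpg-1 was 0.504 ± 0.0881 in the smg-2 triple mutant, 1.12 ± 0.0434 in smg-2 egl-9, 0.711 ± 0.191 in smg-2 and 1.07 ± 0.0871 in N2 (SD, n = 5 each). Its range was 0.420 to 0.630 in the smg-2 triple mutant, below every library of the 7 other genotypes apart from smg-2, whose range was 0.545 to 1.02. In the smg-1 background it was 1.14 ± 0.0607 in the smg-1 triple mutant, 1.11 ± 0.112 in smg-1 egl-9 animals and 0.966 ± 0.0667 in smg-1. The TPM of perm-4 over that of cbd-1 was 4.55 to 9.60 over the smg-2 triple-mutant libraries and at most 3.30 in any other library, with 1.32 to 2.40 in N2. The neighbouring genes perm-2 and perm-4 kept close to each other, with a TPM ratio of 1.02 ± 0.0632 in the smg-2 triple mutant and 1.03 ± 0.0223 in N2, and the lowest mean was 0.906 ± 0.0306 in smg-1 egl-9. The paralogues egg-1 and egg-2 had a ratio of 2.11 ± 0.0646 in the smg-2 triple mutant and 2.35 ± 0.101 in N2, with genotype means from 1.98 to 2.41.

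**Figure D3:**
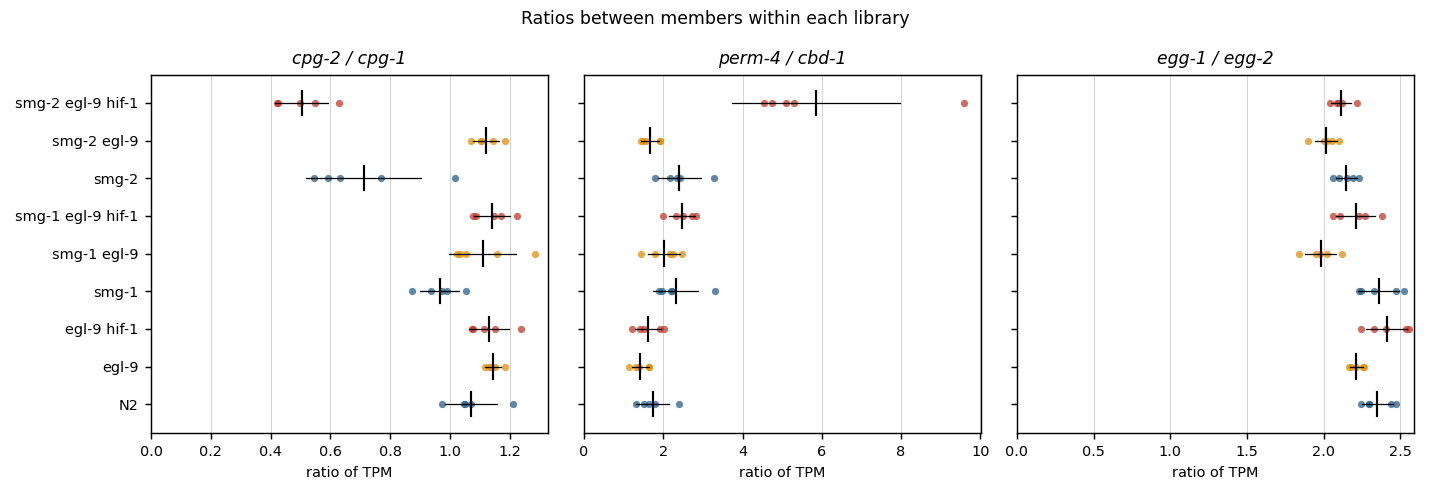
Ratios of TPM (horizontal axes, linear from 0) between genes in each library, by genotype: cpg-2 over cpg-1, perm-4 over cbd-1 and egg-1 over egg-2. Points are libraries, vertical bars means and horizontal bars 1 SD on either side (n = 5), in the colours of the plot of CPM by genotype. The smg-2 triple-mutant libraries stand at 0.420 to 0.630 for cpg-2 over cpg-1 and 4.55 to 9.60 for perm-4 over cbd-1, whereas egg-1 over egg-2 spans 2.04 to 2.22 there and 2.24 to 2.47 in N2.

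Other genes of the same processes were read from lists of 18 eggshell and fertilisation genes and 18 oocyte RNA regulators, of which 17 had a row (puf-10 had none). Of the 18 eggshell genes, 15 fell and 0 rose in both smg-1 and smg-2 relative to N2, with median log2 fold changes of -0.68 and -0.50. In egl-9 relative to N2, 3 rose (cpg-3, mbk-2 and cav-1) and fasn-1 fell. In egl-9 hif-1 relative to egl-9, 11 fell and 0 rose. With egl-9 mutated in addition, 13 rose and 1 fell in smg-1 egl-9 relative to smg-1, and 13 rose and 0 fell in smg-2 egl-9 relative to smg-2 (medians 0.49 and 0.43). When hif-1 was lost, 12 fell and 0 rose in the smg-1 background and 17 fell in the smg-2 background (medians -0.49 and -1.02). All 17 RNA regulators fell in smg-1 and in smg-2 relative to N2, 0 were called in egl-9 relative to N2, 14 fell in egl-9 hif-1 relative to egl-9, and 17 fell when hif-1 was lost from smg-1 egl-9 or smg-2 egl-9. With egl-9 mutated, 17 rose in the smg-1 background and 16 in the smg-2 background. Relative to egl-9, 7 eggshell genes and 11 regulators fell in smg-1 egl-9, and 1 and 4 in smg-2 egl-9. Relative to egl-9 hif-1, 12 eggshell genes and 17 regulators fell in the smg-1 triple mutant and 15 and 17 in the smg-2 triple mutant, and 0 of either list rose in these 4 comparisons. For the interaction of smg-2 with hif-1, 10 eggshell genes and 12 regulators were negative and 0 positive.

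cpg-3, another proteoglycan gene, averaged 413 ± 30.8 CPM in egl-9 and 271 ± 54.05 CPM in N2 (log2 fold change 0.61, SE 0.13), and 220.4 ± 31.7 CPM in egl-9 hif-1 animals, -0.91 on the log2 scale relative to egl-9. It was called in both comparisons, and cpg-1 and cpg-2 in the second. cav-1, which encodes a caveolin of the oocyte and early embryo, averaged 49.4 ± 23.8 CPM in egl-9 and 17.2 ± 9.71 CPM in N2 (log2 fold change 1.52, SE 0.56), and 40.3 ± 20.3 CPM in smg-1 egl-9 and 4.37 ± 2.78 CPM in smg-1 (3.18, SE 0.62). mbk-2, the kinase that starts the oocyte-to-embryo transition, had log2 fold changes of 0.42 in egl-9 relative to N2 and -0.61 in egl-9 hif-1 relative to egl-9. gna-2, which supplies the precursor of chitin, had 0.31 (adjusted p 0.0514 in edgeR, not called) and -0.67. fasn-1, fatty acid synthase, went the other way in egl-9 relative to N2 (-0.46, SE 0.17) and was not called in the other 12 comparisons. Of the regulators, puf-7, spn-4 and pos-1 had log2 fold changes of -0.57, -0.64 and -0.68 in egl-9 hif-1 relative to egl-9, and -1.58, -1.72 and -1.98 in the smg-2 triple mutant relative to smg-2 egl-9.

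Markers of other tissues were read beside these results. Of the 11 distal germ line and meiosis genes, 9 fell in both smg-1 and smg-2 relative to N2, 9 when hif-1 was lost from smg-1 egl-9, and 9 lower with 1 higher (glh-1) when it was lost from smg-2 egl-9. In smg-1 egl-9 relative to smg-1, 7 rose and 0 fell (median 0.31), and in smg-2 egl-9 relative to smg-2, 5 rose and 1 fell (0.23). Relative to egl-9, 6 fell in smg-1 egl-9 and 6 fell in smg-2 egl-9, and relative to egl-9 hif-1, 11 fell in the smg-1 triple mutant and 10 in the smg-2 triple mutant. In egl-9 relative to N2, and in egl-9 hif-1 relative to egl-9, 1 rose and 1 fell. All 9 sperm genes fell in egl-9 relative to N2 (median -1.26), where 0 of the 10 oocyte and eggshell genes were called. In several other comparisons the sperm genes moved the other way from the oocyte genes. In egl-9 hif-1 relative to egl-9, 9 rose (1.63). In smg-1 egl-9 relative to smg-1, 9 fell (-1.33), and 8 fell in smg-2 egl-9 relative to smg-2 (-0.96). When hif-1 was lost, 9 rose in the smg-1 background (1.301) and 8 in the smg-2 background (0.78). Their summed TPM was 159 to 229 in the smg-2 triple mutant, 105 to 124 in smg-2 egl-9, 203 to 294 in egl-9 hif-1, 58.3 to 142 in egl-9, 233 to 293 in smg-1, 161 to 227 in smg-2 and 158 to 264 in N2. In smg-1 and smg-2 relative to N2, 4 and 1 sperm genes rose and 0 fell, and in the smg-2 triple mutant relative to egl-9 hif-1 4 fell. Relative to egl-9, 4 sperm genes rose in smg-1 egl-9 and 2 rose in smg-2 egl-9. The interaction of smg-2 with hif-1 was also called in these lists. It was negative for 7 of the 11 distal germ line genes (median -0.54) and 6 of the 9 sperm genes (-0.83), and positive for 0. The median rise of the sperm genes with loss of hif-1 was 0.78 in the smg-2 background and 1.63 in egl-9. Of the 7 early embryo genes, 3 passed the filter, and the list had a summed level of 2.09 to 13.1 TPM in egl-9, 0.990 to 12.4 in smg-1 egl-9 animals, 0.660 to 1.61 in smg-1 and 0.510 to 3.31 in N2. In smg-1 egl-9 relative to smg-1 all 3 rose (median 3.51), and in the smg-1 triple mutant relative to smg-1 egl-9 all 3 fell (-3.24). Of the 3, 2 rose in smg-2 egl-9 relative to smg-2, 2 fell in egl-9 hif-1 relative to egl-9, 1 rose in egl-9 relative to N2, 1 fell in smg-1 relative to N2, and 0 were called in the other 7 comparisons. The part of sperm, embryo and germ-line amount in the levels of the oocyte genes was not tested.

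Somatic lists were read in the same way. The 2 gonadal sheath genes rose in smg-1 relative to N2 (median 0.45), when the 10 genes fell, and 1 rose in smg-2 relative to N2. Both fell in smg-1 egl-9 relative to smg-1 (-0.36) and both rose in the smg-1 triple mutant relative to smg-1 egl-9 (0.38). In the smg-2 background 1 fell in smg-2 egl-9 relative to smg-2 and 1 rose when hif-1 was lost. Their sum was 10.4 to 12.2 TPM in smg-1, 8.69 to 11.4 in smg-2 and 5.77 to 9.01 in N2. Against N2, 0 of 4 muscle genes were called in smg-1 or smg-2. Of 4 intestine genes 2 rose in smg-1 and 0 in smg-2, of 4 hypodermis genes 1 and 2 rose, and of 4 neuron genes 1 rose and 1 fell in smg-1 and 0 were called in smg-2. In smg-1 egl-9 relative to smg-1, 2 muscle and 2 intestine genes fell, and in the smg-1 triple mutant relative to smg-1 egl-9, 2 muscle genes rose and 0 intestine genes were called. In egl-9 hif-1 relative to egl-9, 2 intestine genes rose and 1 fell. In each genotype every listed gene had counts in at least 1 library.

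**Figure D4:**
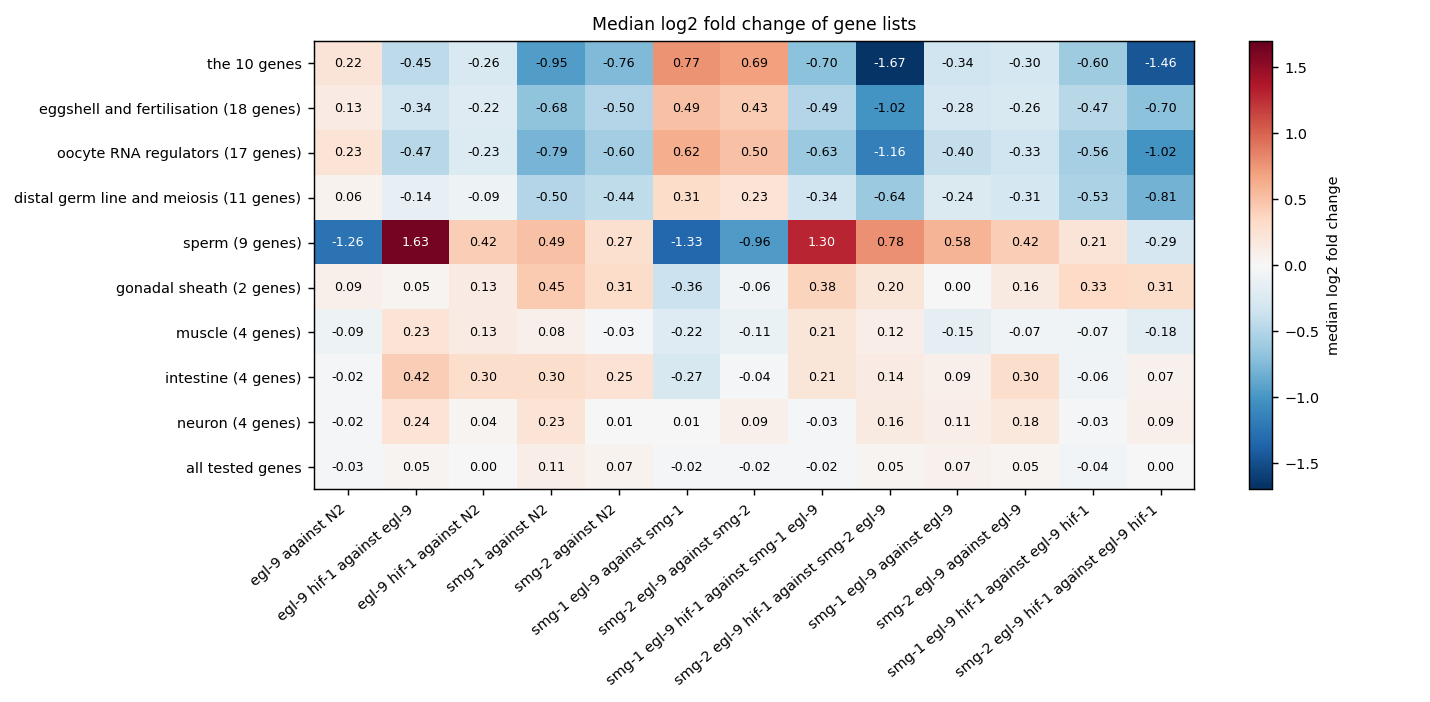
Median log2 fold change (colour and printed value) of the 10 genes, of 8 gene lists and of all tested genes (rows) in 13 comparisons (columns), with blue for lower and red for higher in the genotype named first. The 10 genes, the eggshell list and the RNA regulators share their sign in each column, with medians of -1.67, -1.02 and -1.16 in the smg-2 triple mutant relative to smg-2 egl-9, and the sperm list has the opposite sign in egl-9 relative to N2 at -1.26.

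The genes outside the 10 whose genotype means were most like the mean profile of the 10 were ooc-3, cyb-2.1, fbxa-215, C49C3.6, zif-1, M110.3, Y38C1AA.1 and rabn-5, with Pearson r of 0.993 to 0.997 over the 9 genotype means. ooc-3 had log2 fold changes of -0.65 in smg-1 relative to N2 and -0.56 in the smg-2 triple mutant relative to egl-9 hif-1. cyb-2.1, a B-type cyclin gene, had -0.82 and -0.73, and zif-1, which encodes the adaptor of a ubiquitin ligase that removes germ-line proteins from somatic cells of the early embryo, had -0.91 and -0.87. The smallest of the 8 were those of Y38C1AA.1 in smg-1 (-0.39) and rabn-5 in the smg-2 triple mutant (-0.43). The largest fall in the smg-2 triple mutant, -0.91 for fbxa-215, was smaller than the median of the 10 genes there (-1.46). The mean profile includes perm-2 and perm-4, which did not fall in that comparison. All 9 points of such a profile come from the same 45 libraries, and these genes were picked for their likeness.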

How the data were processed

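The authors deposited a table of estimated counts per gene, rounded to whole numbers, and a table of log2(TPM + 1). The submitters' processing notes name FastQC, STAR 2.7.9a, RSEM 1.3.0, DESeq2 and the build WBcel235, without their roles. The annotation release and whether strand was used in counting are not given in the sources used here, so overlapping genes are uncertain. Per the labels' protocols, libraries were directional, with 12 cycles of amplification and paired 75 nt reads.

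The deposited counts were tested with edgeR 4.0.16 (R 4.3.3) in 1 model of 9 genotype means over 45 libraries, with TMM and filterByExpr (minimum count 10), which kept 16053 genes and left out 0.0372% of counts. Benjamini-Hochberg adjustment ran over all tested genes in each of 13 comparisons and 4 interactions, at a threshold of 0.05. Standard errors are the log2 fold change over the square root of F. Depth was 9822412 to 33169699 counts per library, median 16917459. DESeq2 1.42.0 and limma 3.58.1 (log2 TPM, pseudocount 1 or 0.1) were alternatives. The procedure was tested on simulated data. All 46926 IDs matched Ensembl release 115, and 2811 rows without a symbol keep their ID.

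The 10 genes and the lists were chosen with earlier results of these data known. Named genes are the 10, up to 3 called genes per direction and list with the smallest adjusted p in egl-9 relative to N2 and egl-9 hif-1 relative to egl-9, and the 8 protein-coding genes most like the mean profile. Other genes with values beside them check the labels or overlap a member.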

Additional observations from a re-analysis of the deposited data

Results flagged for a closer look

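A library that stood apart from the other 4 of its genotype, by Dixon's ratio at the 95% level, was found in 4 of 90 groups of 5 libraries (10 genes by 9 genotypes), and chance flags about 1 group in 20. They were egg-1 at 451 CPM in smg-1 egl-9 replicate D, the highest, cpg-2 at 1735 CPM in smg-1 egl-9 replicate E, the highest, and puf-5 at 215 CPM in smg-1 replicate C and at 252 CPM in smg-2 replicate C, the lowest of their groups.

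An effect that differed between backgrounds, by an interaction in edgeR with an adjusted p under 0.05, was found for 12 pairs of a gene and an interaction. Over all tested genes 8.93% were called for smg-1 by egl-9 and 3.64% for smg-2 by egl-9. The shares were 3.58% for smg-1 by hif-1 and 20.1% for smg-2 by hif-1. The log2 effect of egl-9 in smg-1 minus that in NMD-intact animals was 0.54 for perm-2, 0.52 for perm-4 and 0.69 for puf-5. In smg-2 the same difference was 1.00 for cpg-2. In the model as reported the egl-9 values of perm-2 and perm-4 differed in sign. They were negative and not called with NMD intact, and positive in smg-1, where perm-2 was not called. On both TPM scales the NMD-intact value of perm-4 was positive, at 0.0054. The effect of losing hif-1 in smg-2 egl-9 minus that in egl-9 was -2.28 for cpg-2, -1.34 for egg-1, -1.29 for cbd-1, -1.27 for egg-2, -1.17 for cpg-1, -1.13 for oma-2, -1.06 for puf-5 and -0.93 for chs-1. Every smg-2 triple-mutant library lay below every smg-2 egl-9 library for these 8 genes, beside 23.5% of all tested genes. The chs-1 interaction call was lost without some single libraries and on the log2(TPM + 1) scale.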

How the results depend on the processing

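No called value of the 10 genes changed sign under the alternatives tried: DESeq2 size factors, the DESeq2 Wald test, no filter, a mean of at least 5 CPM, limma on log2(TPM + 1) or log2(TPM + 0.1), the replicate letter as a block, only the genotypes compared, 1 library left out and, chosen after seeing the data, all C libraries left out. In the order size factors, Wald test, no filter, block, subset and no C, the 10 genes had 6, 6, 6, 6, 8 and 6 calls for smg-1 egl-9 relative to egl-9. For smg-2 egl-9 relative to egl-9 they had 4, 5, 4, 3, 7 and 5. All were calls of lower levels, and the counts of all genes called lower moved too. In the same order these were 2849, 2984, 2782, 2343, 2076 and 2094 in the smg-1 comparison (1695 as reported). In the smg-2 comparison they were 3293, 3399, 3305, 2283, 2593 and 3140 (1550 as reported). Among the 10 genes the subset gave 7 calls for egl-9 relative to N2 (1 without C) and 0 for egl-9 hif-1 relative to N2. Either TPM scale gave 1 for the smg-1 triple mutant relative to egl-9 hif-1. The smg-1 by egl-9 interaction had 0 calls among the 10 with size factors and with either TPM scale, 8 with the block, 6 with the subset and 7 without C. Counts over all genes that moved by more than 1.5 times were, for egl-9 hif-1 relative to N2, 3651 (block) and 895 (subset). At a mean of at least 5 CPM they were 3463 for smg-2 egl-9 relative to egl-9 and 3868 for the smg-1 triple mutant relative to egl-9 hif-1. The smg-1 by egl-9 interaction gave 934 (size factors), 906 (no filter), 908 (log2(TPM + 0.1)) and 2494 (block), the smg-2 by egl-9 interaction 889 (block) and 326 (no C), and the smg-1 by hif-1 interaction 299 (no filter), 358 (at least 5 CPM), 1006 (block), 208 (subset) and 338 (no C). The cause was not tested.

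With 1 library left out, calls among the 10 ranged from 0 to 1 for egl-9 relative to N2 (1 without N2 replicate A), 5 to 9 for egl-9 hif-1 relative to egl-9 (5 without egl-9 replicate C), 1 to 2 for egl-9 hif-1 relative to N2, 0 to 4 for smg-1 egl-9 relative to egl-9 (0 without smg-1 egl-9 replicate C), 5 to 8 for the smg-1 triple mutant relative to egl-9 hif-1 (5 without egl-9 hif-1 replicate A), 0 to 5 for the smg-1 by egl-9 interaction and 0 to 1 for the smg-2 by egl-9 interaction. Over all genes the range was 969 to 3344 for egl-9 hif-1 relative to N2 (969 without egl-9 hif-1 replicate C), 651 to 1924 for the smg-1 by egl-9 interaction (651 without smg-1 replicate C), 321 to 662 for the smg-2 by egl-9 interaction (321 without smg-2 replicate C) and 275 to 881 for the smg-1 by hif-1 interaction (275 without egl-9 hif-1 replicate E and 881 without egl-9 hif-1 replicate A).

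Values that were not called, in the comparison as reported or under the alternative, did change sign for 10 pairs of gene and comparison. On both TPM scales perm-4 had 0.0054 in egl-9 relative to N2 (-0.12 as reported) and -0.055 in the smg-2 triple mutant relative to smg-2 egl-9 (0.021, and -0.015 to 0.20 with 1 library left out). In the smg-1 triple mutant relative to egl-9 hif-1, perm-2 had 0.037 on both TPM scales (-0.11), and perm-4 (-0.0027) had 0.036 with size factors or the Wald test, 0.097 at a mean of at least 5 CPM, 0.14 on both TPM scales, 0.034 with the subset and -0.063 to 0.093 with 1 library left out. In the smg-1 by hif-1 interaction, cbd-1 (-0.11) had 0.013 with size factors and 0.014 with the Wald test, and on both TPM scales cbd-1 had 0.20, egg-1 0.10 (-0.20), egg-2 0.065 (-0.22) and oma-2 0.12 and 0.11 (-0.19). perm-2 (0.0061) had -0.012 without C there, and with 1 library left out cbd-1 lay between -0.21 and 0.051, perm-2 between -0.052 and 0.13 and chs-1 between -0.00071 and 0.23 (0.076).

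Same-letter deviations correlated over 0.1 in 35 of 65 pairs (r from -0.34 to 0.42) and for all 5 letters in 0 of 13 comparisons, so by the rule that every pair exceed 0.1 the letters were not taken to pair the samples. As a hint from the data, not the design, the same-letter library of the other genotype correlated best in 25 of the 65 pairs. The same libraries recur in these pairs over the 13 comparisons. In the mean of the 10 genes C lay below its genotype mean in 8 of 9 genotypes and D in 0. With the letter as a replicate block, 16 tests of the 10 genes were newly called and 0 lost.

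On the log2(TPM + 1) scale the share of higher among called genes moved by over 10 percentage points, to 49.8% for egl-9 relative to N2 (35.4% in CPM), 34.5% for egl-9 hif-1 relative to egl-9 (57.2%), 43.7% for egl-9 hif-1 relative to N2 (66.6%), 60.1% for smg-2 egl-9 relative to smg-2 (46.5%), 52.7% for smg-1 egl-9 relative to egl-9 (69.5%), 81.1% for smg-2 egl-9 relative to egl-9 (71.0%), 78.7% for the smg-1 triple mutant relative to egl-9 hif-1 (50.8%) and 68.7% for the smg-2 triple mutant relative to egl-9 hif-1 (49.8%), and for the share of positive to 19.3% (64.7%) for smg-1 by egl-9, 68.3% (21.4%) for smg-1 by hif-1 and 52.8% (23.6%) for smg-2 by hif-1. With size factors the share of higher also moved by over 10 percentage points in some comparisons. It was 44.6% for egl-9 hif-1 relative to egl-9 and 53.7% for egl-9 hif-1 relative to N2. Relative to egl-9 it was 54.6% for smg-1 egl-9 and 49.9% for smg-2 egl-9. The share of positive was 40.1% for smg-1 by egl-9 and 34.1% for smg-2 by egl-9 (46.3% in CPM). It was 54.2% for smg-1 by hif-1 and 43.1% for smg-2 by hif-1. Depth did not limit the 10 genes, whose lowest value was 477 counts.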
